A study of Caenorhabditis elegans with 12 samples.

Results

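The transcriptomes of eat-2(ad1116); dis-3(L75Q) double mutant Caenorhabditis elegans and of dis-3(L75Q) single mutants were compared, so that the eat-2 allele was the labelled difference and both groups carried dis-3(L75Q). The members were all 16259 genes tested, out of 46934 gene entries, in the 6 of 12 libraries that the labels assign to these genotypes, 3 for each. The double mutant was strain IJ2290 and the single mutant strain VC40130. The same allele was also read without dis-3(L75Q), as eat-2(ad1116) strain IJ173 against wild-type N2, again with 3 libraries each. All libraries came from whole bodies of synchronised hermaphrodites at the prefertile adult stage, kept at 20 °C on the Escherichia coli strain OP50, and the labels give independent harvests. Each library is a pool of animals. VC40130 belongs to a collection of randomly mutagenised strains, and how far it or the other strains were outcrossed is not given in the sources used here. A difference between strains therefore cannot be told apart from a difference made by the named alleles alone.

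The eat-2 gene encodes a nicotinic acetylcholine receptor subunit that acts in the pharyngeal muscle, the pump with which the worm takes up bacteria. Loss of eat-2 slows pumping, and eat-2(ad1116) is widely used as a genetic model of dietary restriction with extended lifespan. Food shortage in worms is known to engage lysosomal lipases under the transcription factor HLH-30, genes under the insulin-responsive factor DAF-16, and intestinal defence and detoxification genes. The dis-3 gene encodes a ribonuclease of the RNA exosome, and the title of the series ties DIS-3 to longevity through tRNA fragments. The question addressed here is which transcripts differ with the eat-2 allele when dis-3(L75Q) is present in both groups.

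The 12 libraries held between 31812392 and 32773803 counts and between 18219 and 18841 genes above 0. Levels below are given as CPM, counts relative to the library total after scaling by the trimmed mean of M-values, and changes are log2 fold changes of the double mutant over the dis-3 single mutant with a standard error (SE), tested with edgeR. Calls required an adjusted p below 0.05 (Benjamini-Hochberg, over all genes tested). The dis-3 transcript was at 184, 190.0 and 182 CPM in the dis-3 single mutant and at 161, 168 and 175 CPM in the double mutant. These groups did not overlap, but the change of -0.14 was not called (adjusted p = 0.594), and the L75Q substitution, a single residue, is not visible in counts. The eat-2 transcript was at 0.662, 0.753 and 0.457 CPM in the dis-3 single mutant and at 0.274, 0.294 and 0.269 CPM in the double mutant. It was lower in every double mutant library, with a log2 fold change of -1.15 that was not called (adjusted p = 0.42), so transcript levels check neither label.

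Libraries of one genotype differed in developmental timing. A stage score was formed from 24 molt genes and 22 oocyte and yolk genes, as the mean log2 CPM of the former less that of the latter. It was 1.82, 1.41 and -1.58 in the dis-3 single mutant and 1.22, 0.668 and 0.446 in the double mutant. Replicate 3 of the dis-3 single mutant stood apart from the other 5 libraries, and the double mutant libraries lay within the range of the single mutant. The means were 0.549 ± 1.85 and 0.778 ± 0.399 (SD, n = 3 each), a difference of 0.228 (exact two-sided permutation test, p = 1, where 0.1 is the smallest p possible). Without that replicate the difference was -0.834. How much of each result below is due to this timing was not measured. The counts are therefore also given without that library and, for many lists, from a fit with the stage score as a covariate.

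**Figure D1:**
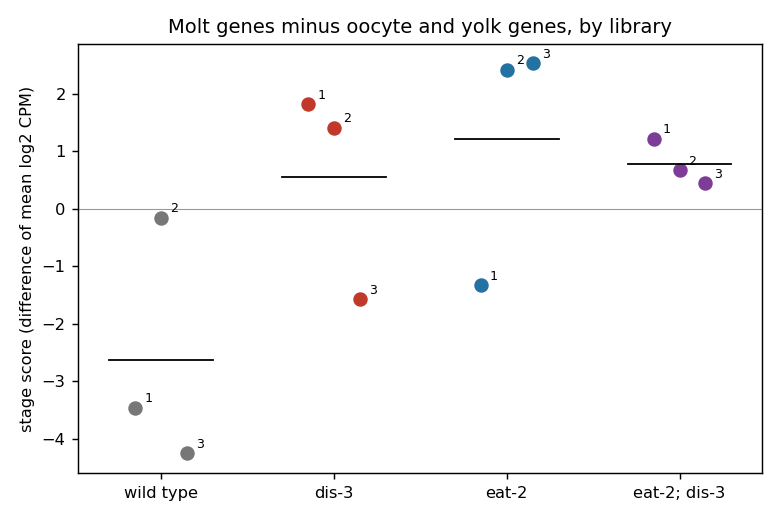
Stage score of each library (mean log2 CPM of molt genes minus that of oocyte and yolk genes, vertical axis) by genotype, with replicate numbers beside the points and the mean of 3 libraries as a line. The double mutant libraries lie between 0.446 and 1.22, while the dis-3 libraries run from -1.58 to 1.82.

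With the eat-2 allele, 202 genes were called in worms that carried dis-3(L75Q), which is 1.24% of those tested. Of these, 89 were higher (0.547% of genes tested) and 113 were lower (0.695%). Genes for lysosomal lipases, lysozymes, several cytochromes P450 and the long noncoding RNA tts-1 were among the higher ones. Genes of the CUB-like infection response, the pud family, glutathione S-transferases, UDP-glucuronosyltransferases and aspartyl proteases were among the lower ones. At least 2-fold differences made up 145 of the calls, 72 higher and 73 lower, and 48 calls were at least 4-fold. The CPM values of the groups were without overlap in all 202 called genes, and in 22.2% of all genes tested. For the called genes below, a lack of overlap therefore adds nothing to the call. By annotation 199 called genes were protein coding, 2 of those higher were noncoding RNAs and 1 of those lower was a pseudogene. The lectin gene clec-209 is listed under 2 identifiers with identical counts, and both stand among the 113. The median log2 fold change of all genes was 0.05 with the main scaling, 0.0039 with DESeq2-type size factors and 0.163 with library totals alone. With library totals alone the split was 147 higher and 98 lower. Without replicate 3 of the dis-3 single mutant 170 genes were called, 68 higher and 102 lower, and 142 of them were among the 202. A fit that also held the stage score as a covariate called 957 genes, with 409 higher and 548 lower, and all 202 were among these. Whether any gene list below departs from the shares over all genes was not tested.

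**Figure D2:**
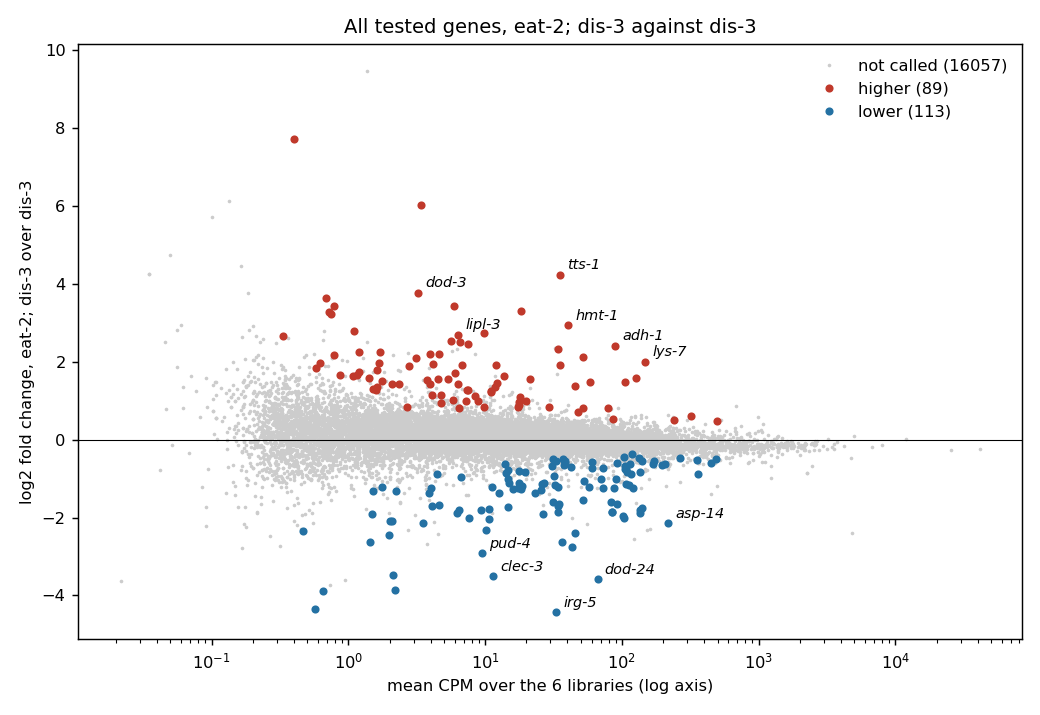
Log2 fold change of the double mutant over the dis-3 single mutant (vertical axis) against the mean CPM over the 6 libraries (horizontal log axis) for each gene tested. The 89 genes called higher and 113 called lower are coloured, and the 16057 genes not called are grey.

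The noncoding RNA tts-1 showed the largest rise of all called genes that bear a gene-class name and average 5 CPM or more. It is known in worms as a ribosome-associated transcript that is abundant in long-lived mutants. It stood at 3.37, 3.89 and 3.39 CPM in the dis-3 single mutant and at 53.7, 74.3 and 72.6 CPM in the double mutant. Every double mutant library was far above every single mutant library. The log2 fold change was 4.23 ± 0.20 (SE), or 18.8-fold, with an adjusted p of 3.58e-06. The gene lies on chromosome X at 1504131 to 1504841 (WBcel235). Another transcript of the DAF-16 class, dod-3, whose name stands for downstream of DAF-16, went from 0.265, 0.458 and 0.587 CPM to 5.42, 6.53 and 6.13 CPM. Its groups did not overlap either, at 13.7-fold (adjusted p = 2.24e-04). Other genes with the dod name fell, namely dod-24, dod-17 and dod-22, as given below.

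Lipases formed a group in which every call was a rise. Of 23 tested genes of lysosomal and fasting lipases, 4 rose and none fell, and the median log2 fold change of the 23 was 0.16 against 0.05 over all genes. Over all genes tested 0.547% were called higher and 0.695% lower. The lysosomal acid lipase gene lipl-3, which in worms is induced by fasting, was at 2.08, 1.18 and 1.83 CPM in the dis-3 single mutant and at 9.20, 11.8 and 12.0 CPM in the double mutant. The groups were apart, at 6.48-fold (adjusted p = 2.13e-04). The related gene lipl-2 was at 1.69, 1.18 and 1.99 CPM against 6.52, 7.44 and 8.55 CPM, 4.63-fold higher (adjusted p = 0.00149). The third, lipl-1, was at 1.49, 1.64 and 1.11 CPM against 5.46, 6.85 and 7.24 CPM, 4.61-fold higher (adjusted p = 0.00162). For these 3 genes the lowest double mutant library stood above the highest single mutant library. The putative lipase gene lips-6 was at 2.58, 2.06 and 2.32 CPM against 12.2, 13.97 and 11.9 CPM, a log2 fold change of 2.45 ± 0.42 (adjusted p = 0.0172). Its call was lost in 6 of 15 alternative settings, among them without replicate 3 of the dis-3 single mutant, where 3 lipases remained called.

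Other genes of fat and carbohydrate use moved in both directions. In the list of beta-oxidation and the carnitine shuttle 1 of 41 tested genes rose and 2 fell, or 3 and 7 after adjustment for the stage score. That adjustment gave 409 higher and 548 lower among all 16259 genes tested, against 89 and 113 without it. The hydroxyacyl-CoA dehydrogenase gene hacd-1 was at 58.6, 61.9 and 51.2 CPM in the dis-3 single mutant and at 89.0, 109 and 105 CPM in the double mutant. It was higher in each double mutant library, by 1.77-fold (adjusted p = 0.00665). The carnitine palmitoyltransferase gene cpt-5, whose enzyme family loads fatty acids for import into mitochondria, was at 80.5, 95.2 and 56.2 CPM against 29.4, 24.8 and 25.7 CPM. Its level fell 2.90-fold (adjusted p = 0.00788), and the single mutant libraries varied more than those of the double mutant. The acyl-CoA dehydrogenase gene acdh-2 fell 3.41-fold, from a mean of 16.5 to 4.83 CPM (adjusted p = 0.0264). Among 22 genes of the glyoxylate cycle, gluconeogenesis and trehalose, icl-1, which encodes the bifunctional glyoxylate cycle enzyme, was the single call. It was at 436, 361 and 439 CPM against 591, 546 and 578 CPM, 1.39-fold higher (adjusted p = 0.047), and lost its call in 10 of 15 settings. The cystathionine gamma-lyase gene cth-2 was the single call among 28 genes of propionate, B12 and methionine metabolism. It was at 247, 243 and 237 CPM against 163, 146 and 150.3 CPM and fell 1.58-fold (adjusted p = 0.00447). No gene was called among 29 of fatty acid synthesis and desaturation, where 4 had an unadjusted p below 0.05. Without replicate 3 of the dis-3 single mutant 1 of them was called lower, with library totals alone 1 higher, and after adjustment for the stage score 1 higher and 3 lower. The desaturase gene fat-7 was at 670.0, 807 and 521 CPM against 529, 456 and 461 CPM (log2 fold change -0.47, adjusted p = 0.223).

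**Figure D3:**
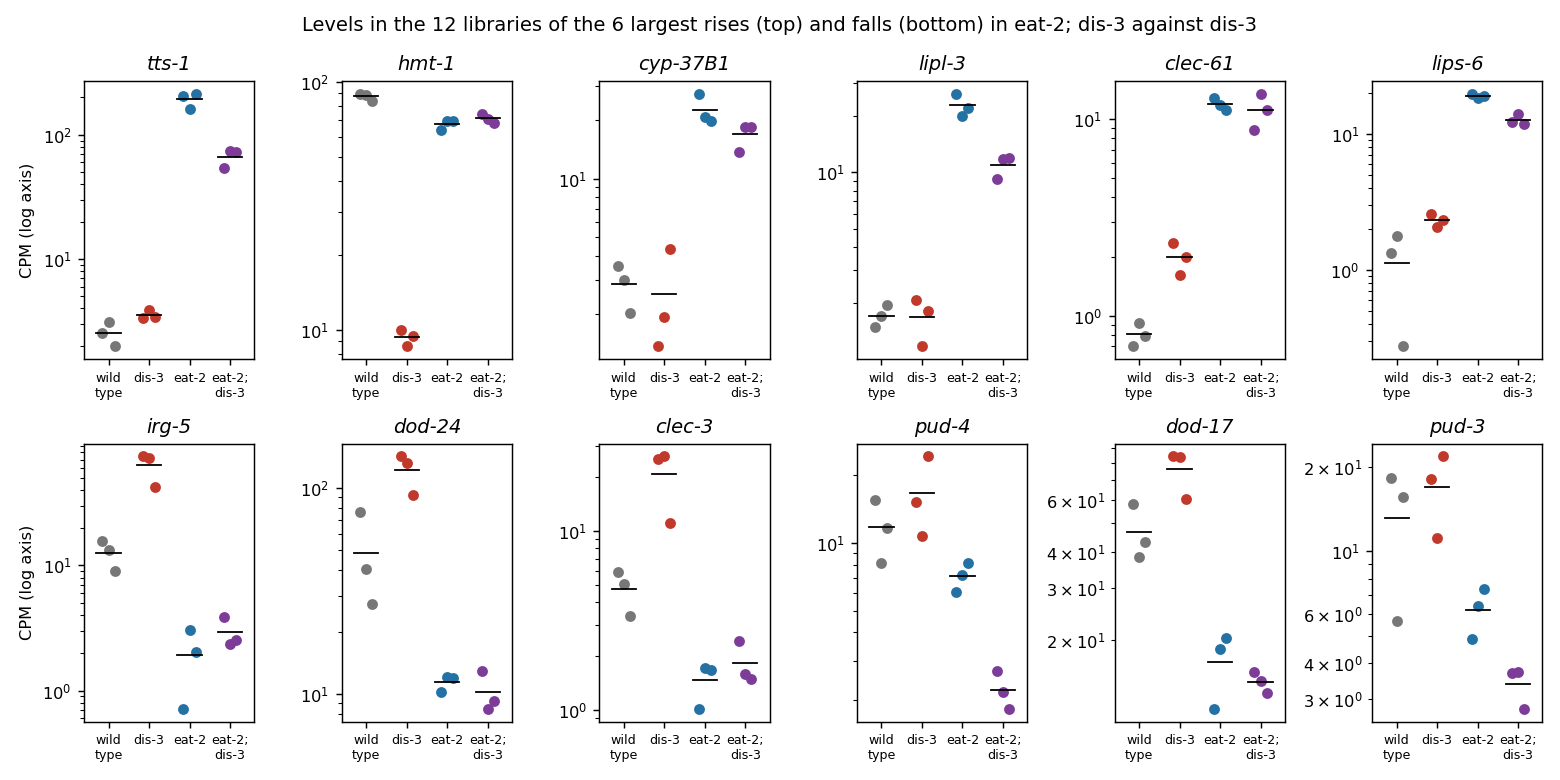
CPM (log axes) in all 12 libraries for the 6 largest rises (top) and the 6 largest falls (bottom) of called genes that bear a gene-class name and average 5 CPM or more, with the mean of 3 libraries as a line. In each panel the double mutant points lie clear of the dis-3 points, as the rule for picking these genes required. The level of hmt-1 is low in the dis-3 strain alone, at a mean of 9.32 CPM.

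Further rises were seen in genes of diverse known roles. The alcohol dehydrogenase gene adh-1 was at 32.7, 33.3 and 17.9 CPM in the dis-3 single mutant and at 146, 156 and 147 CPM in the double mutant. All double mutant libraries were several-fold above, with a log2 fold change of 2.42 ± 0.25 (adjusted p = 8.12e-04). The gene scl-2, of a family of secreted proteins related to the SCP domain, was at 23.1, 18.8 and 16.5 CPM against 71.0, 95.9 and 88.4 CPM, 4.38-fold higher (adjusted p = 2.13e-04). The thaumatin family gene thn-2 was at 12.8, 14.2 and 17.0 CPM against 43.6, 64.0 and 59.6 CPM, 3.80-fold higher (adjusted p = 4.36e-04). Neither pair of groups overlapped, which the rule that picked these genes required. The insulin-like peptide gene ins-7, whose product is known as an agonist of the insulin receptor DAF-2 and which sits on the list of DAF-16 targets as well, was the single call among 24 insulin-like genes. It was at 0.794, 1.51 and 1.11 CPM against 2.53, 3.15 and 3.44 CPM, 2.67-fold higher (adjusted p = 0.0169), and lost its call without replicate 3 of the dis-3 single mutant.

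Innate immune effectors changed in both directions. Of 84 tested effector genes 5 rose and 9 fell, and their median log2 fold change was -0.04. The counts were 4 and 8 without replicate 3 of the dis-3 single mutant, and 8 and 14 after adjustment for the stage score. Over all 16259 genes tested 0.547% were higher and 0.695% lower in the main fit, and 409 and 548 genes with that adjustment. The rises were in 4 lysozyme genes and a saposin-like gene, families whose proteins act on bacterial walls or membranes. The lysozyme gene lys-7 was at 63.6, 54.2 and 60.7 CPM in the dis-3 single mutant and at 199.9, 259 and 254 CPM in the double mutant. The groups lay wide apart, at 3.99-fold (adjusted p = 2.39e-05). The invertebrate-type lysozyme genes ilys-2 and ilys-3 rose 4.76-fold and 6.97-fold and the lysozyme gene lys-10 rose 10.7-fold, each to a mean between 1.44 and 1.99 CPM (adjusted p = 0.0165, 0.00941 and 0.0146). The saposin-like gene spp-2 rose 2.78-fold to a mean of 86.4 CPM (adjusted p = 0.00853).

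The falls in this list were mostly in genes of the infection response. The infection response gene irg-5, which encodes a CUB-like protein, was at 74.5, 72.4 and 42.3 CPM in the dis-3 single mutant and at 3.90, 2.35 and 2.54 CPM in the double mutant. It was lower in every double mutant library, with a log2 fold change of -4.43 ± 0.48, a 21.5-fold fall (adjusted p = 0.00118). The CUB-like gene dod-24 was at 142, 133 and 92.9 CPM against 13.0, 8.44 and 9.21 CPM and fell 12.0-fold (adjusted p = 6.42e-04). The related dod-17 was at 84.4, 83.9 and 60.6 CPM against 15.5, 14.4 and 13.2 CPM and fell 5.31-fold (adjusted p = 5.63e-04). For these 3 genes replicate 3 was the lowest of the dis-3 libraries, and the fitted falls without it were larger, at -4.65, -3.75 and -2.55 on the log2 scale. The gene irg-4, another infection response gene, was at 176, 207 and 115 CPM against 49.7, 37.5 and 37.4 CPM, 4.00-fold lower (adjusted p = 0.0395), and lost its call in 7 of 15 settings. The remaining falls were in dod-22 (3.30-fold), dct-17 (2.59-fold), sysm-1 (4.24-fold), spp-4 (2.17-fold) and spp-17 (2.24-fold), of which the last 2 encode saposin-like proteins like spp-2. In spp-4 the adjusted p was 0.00853, the same as for spp-2, with the opposite direction.

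C-type lectins, a large worm family with many genes induced by pathogens, were also divided. Of 134 tested identifiers 4 rose and 7 fell, and the median log2 fold change was 0.12. Without replicate 3 of the dis-3 single mutant 3 were higher and 8 lower, and after adjustment for the stage score 16 and 16. Calls over all 16259 genes tested also grew with the adjustment, from 89 higher and 113 lower to 409 and 548. The falling identifiers include both entries of clec-209, which fell 3.601-fold (adjusted p = 0.00118). The lectin gene clec-61 was at 2.35, 1.60 and 1.99 CPM in the dis-3 single mutant and at 8.87, 13.5 and 11.2 CPM in the double mutant. It was higher in all double mutant libraries, by 5.64-fold (adjusted p = 2.13e-04), and the nearby clec-60 rose 4.25-fold (adjusted p = 3.91e-04). In contrast, clec-3 was at 25.3, 26.2 and 11.2 CPM against 2.44, 1.59 and 1.495 CPM and fell 11.3-fold (adjusted p = 0.00129). The gene clec-47 was at 146, 136 and 138 CPM against 45.0, 43.7 and 44.1 CPM and fell 3.17-fold (adjusted p = 5.76e-05). Both groups of clec-47 were tight, and the ranges were far apart.

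Genes of oxidising detoxification enzymes were called in both directions. Among 67 cytochrome P450 genes, whose enzymes oxidise foreign compounds and lipids, 4 rose and 1 fell. The shares over all genes tested were 0.547% higher and 0.695% lower. The gene cyp-37B1 was at 1.36, 1.93 and 4.31 CPM in the dis-3 single mutant and at 13.8, 18.6 and 18.5 CPM in the double mutant. It was 6.70-fold higher (adjusted p = 0.00595), and replicate 3 was the highest of the dis-3 libraries. The genes cyp-13A5, cyp-13A1 and cyp-32B1 rose 3.27-fold, 3.15-fold and 2.96-fold. The fall was in cyp-25A1, at 19.8, 21.5 and 10.5 CPM against 4.11, 4.91 and 3.56 CPM, 4.11-fold (adjusted p = 0.00685). The count of P450 genes without replicate 3 of the dis-3 single mutant was 2 higher and 1 lower. It became 9 higher and 9 lower after adjustment for the stage score, which raised the calls over all genes from 202 to 957.

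All calls among genes of conjugating enzymes were falls in the main fit, but most of these genes were not called. Of 65 UDP-glucuronosyltransferase genes, whose products couple sugars to toxins, 5 fell and none rose, with a median log2 fold change of -0.17, and the count was also 5 without replicate 3 of the dis-3 single mutant. After adjustment for the stage score 1 was higher and 12 lower. All 16259 genes tested gave 409 and 548 in that fit, and 0.547% higher and 0.695% lower in the main fit. The gene ugt-53 was at 9.00, 9.62 and 10.9 CPM in the dis-3 single mutant and at 2.32, 3.03 and 2.63 CPM in the double mutant, 3.69-fold lower (adjusted p = 0.00583). The gene ugt-30 was at 22.3, 23.1 and 31.7 CPM against 10.4, 10.2 and 11.4 CPM, 2.41-fold lower (adjusted p = 0.00220). No double mutant library reached a single mutant library in either gene. The others were ugt-26, ugt-41 and ugt-46, which fell between 1.85-fold and 2.36-fold. Of 49 glutathione S-transferase genes and targets of the stress factor SKN-1, 4 fell and none rose, with a median of -0.26. The standard reporter of SKN-1 activity, gst-4, was at 55.7, 54.6 and 51.0 CPM against 18.0, 14.2 and 12.5 CPM. It fell 3.61-fold, with groups well separated (adjusted p = 8.84e-05). The gene gst-10 was at 237, 223 and 189.5 CPM against 69.3, 65.7 and 57.7 CPM and fell 3.37-fold (adjusted p = 1.43e-04), and gst-13 and gst-1 fell 2.02-fold and 1.28-fold. Without replicate 3 of the dis-3 single mutant the glutathione list had 1 gene higher and 3 lower, and after adjustment for the stage score 0 and 8. The transcript of skn-1 itself was at 40.9, 34.0 and 45.1 CPM against 39.4, 29.9 and 40.4 CPM, ranges that overlapped (adjusted p = 0.824).

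**Figure D4:**
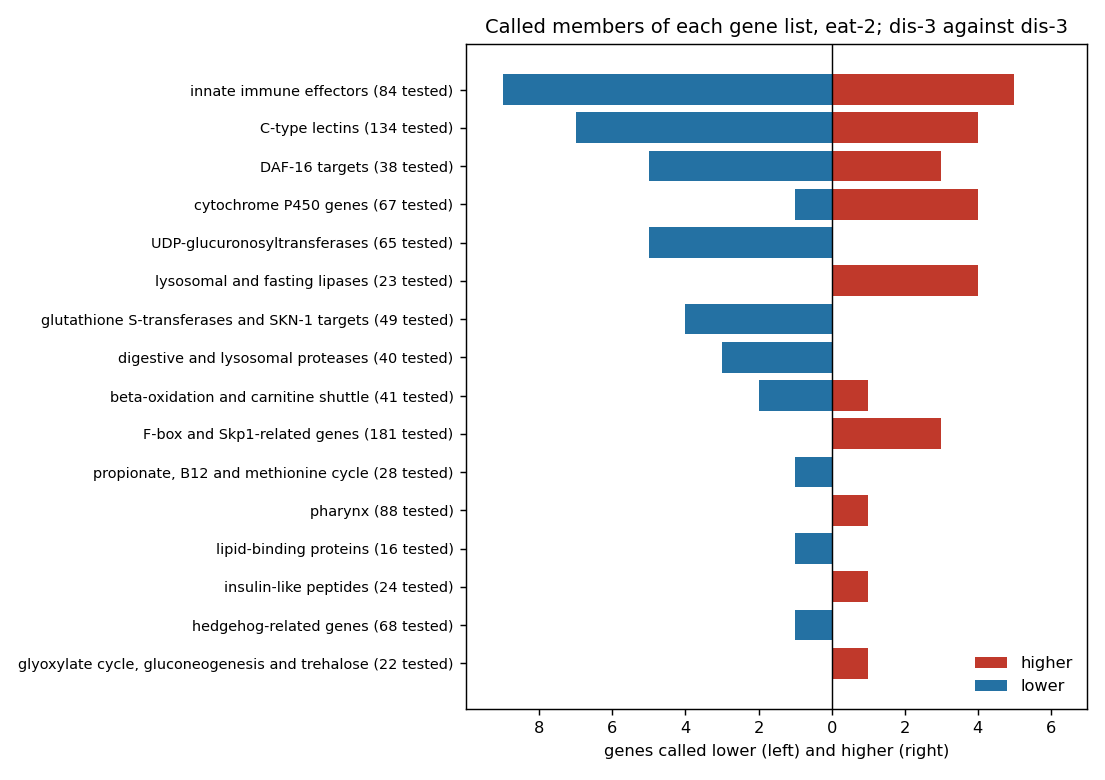
Number of called genes in each gene list with at least 1 call, lower to the left in blue and higher to the right in red, with the number of genes tested in brackets. Lipases and F-box genes have calls to the right alone, and UDP-glucuronosyltransferases, the glutathione list and proteases have calls to the left alone.

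The pud genes, named as proteins up in daf-2 mutants, fell as a neighbourhood. Of 38 DAF-16 targets tested 3 rose, namely tts-1, dod-3 and ins-7, and 5 fell, all of them pud genes. The genes dod-24, dod-17 and dod-22, named like dod-3, stood on the list of innate immune effectors instead. They fell 12.0-fold, 5.31-fold and 3.30-fold. The 5 pud genes lie on chromosome V between 2322038 and 2330930, a stretch of 8.893 kb in which 6 genes were tested. The gene pud-4 was at 15.2, 10.8 and 24.3 CPM in the dis-3 single mutant and at 2.68, 2.18 and 1.82 CPM in the double mutant, 7.52-fold lower (adjusted p = 0.00154). The gene pud-1.1 was at 45.6, 38.6 and 42.1 CPM against 12.4, 10.1 and 11.3 CPM, 3.72-fold lower (adjusted p = 0.00515). In both genes all double mutant libraries were below all single mutant libraries. The gene pud-3 was at 18.1, 11.2 and 21.7 CPM against 3.69, 3.74 and 2.75 CPM, 5.00-fold lower (adjusted p = 0.0196), and lost its call in 5 of 15 settings. The genes pud-1.2 and pud-2.2 fell 3.51-fold and 3.69-fold. These genes are similar in sequence, so reads may be shared between them. Without replicate 3 of the dis-3 single mutant the count of DAF-16 targets was 2 higher and 3 lower. The stage-adjusted count was 4 higher and 5 lower, against 409 and 548 among all 16259 genes tested. In the main fit 0.547% of all genes tested were higher and 0.695% lower.

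Aspartyl proteases, intestinal and lysosomal enzymes that digest protein, supplied all 3 calls among 40 tested proteases, and all were falls. There were also 3 falls without replicate 3 of the dis-3 single mutant, while 2 proteases were higher and 4 lower after adjustment for the stage score. Of all 16259 genes tested 0.695% fell in the main fit, and the adjusted fit called 409 higher and 548 lower. The gene asp-14 was at 422, 372 and 277 CPM in the dis-3 single mutant and at 95.1, 71.7 and 76.3 CPM in the double mutant, 4.41-fold lower (adjusted p = 0.00412). The gene asp-12 was at 64.0, 55.6 and 39.6 CPM against 17.9, 16.3 and 16.1 CPM, 3.17-fold lower (adjusted p = 0.00149). Replicate 3 was the lowest dis-3 library in both, yet far above the double mutant. The gene asp-13 fell 1.42-fold, from a mean of 568 to 400.3 CPM (adjusted p = 0.0282).

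Single calls came from 3 further lists, and 3 from F-box genes, whose products select proteins for ubiquitin ligases. Among all genes tested 1.24% were called, and whether these lists differ from that share was not tested. The patched-related gene ptr-24 was the 1 call among 68 hedgehog-related genes, at 87.9, 88.7 and 94.3 CPM against 62.1, 50.1 and 51.4 CPM, 1.65-fold lower (adjusted p = 0.0134). The gene pqn-75, which encodes a protein rich in glutamine and asparagine, was the 1 call among 88 pharynx genes, at 7.31, 7.23 and 5.25 CPM against 15.3, 16.2 and 15.4 CPM, 2.37-fold higher (adjusted p = 0.024). The lipid-binding protein gene lbp-2 was the 1 call of 16 in its family, at 326, 322 and 284 CPM against 234, 234 and 208 CPM, 1.38-fold lower (adjusted p = 0.0315). These 3 pairs of groups did not overlap, and each call was lost in at least 3 of 15 settings. Of 181 F-box and Skp1-related genes 3 rose, or 2 without replicate 3 of the dis-3 single mutant. Stage-adjusted counts were 7 higher and 1 lower, against 409 and 548 among all 16259 genes tested. The gene fbxa-158 was at 0.0992, 0.164 and 0.131 CPM against 1.13, 1.29 and 1.53 CPM, 9.77-fold higher (adjusted p = 0.0021). The others were fbxa-192 (2.86-fold) and fbxa-108 (2.04-fold), which lie within 18.714 kb on chromosome V.

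Among called genes without a gene-class name, the largest rises at a mean of at least 5 CPM were C50F7.5 (10.8-fold, adjusted p = 0.00149), T24C12.3 (9.83-fold, adjusted p = 6.53e-05) and W08E12.2 (5.77-fold, adjusted p = 0.00853). The gene C50F7.5 was at 1.16, 1.08 and 0.750 CPM in the dis-3 single mutant and at 8.75, 12.1 and 11.5 CPM in the double mutant. The largest falls were in F55G11.2 (6.75-fold, adjusted p = 1.43e-04), T22B7.7 (6.17-fold, adjusted p = 0.00359) and C32H11.4 (4.05-fold, adjusted p = 0.00941). The gene F55G11.2 was at 89.0, 79.9 and 55.9 CPM against 11.5, 9.94 and 11.9 CPM. It lies on chromosome IV between dod-22 and dod-17. The gene T22B7.7 was at 43.3, 52.2 and 93.4 CPM against 11.0, 9.80 and 9.84 CPM. Groups without overlap were required of all 6 genes by the rule that picked them.

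Many lists held no call by edgeR. Among all 16259 genes tested 1692 had an unadjusted p below 0.05. Of the 16259, 9126 had a positive change, or 11664 with library totals alone. Genes within a list are not independent of each other. The yolk protein genes vit-1 to vit-6 were the list with the lowest median, at -2.23, with all 6 fitted changes negative and 4 unadjusted p below 0.05. Summed over the 6 genes, the dis-3 libraries in order of size were at 893, 964 and 3550.2 CPM and those of the double mutant at 448, 502 and 818 CPM. The groups did not overlap, and the highest dis-3 value belonged to replicate 3, the library with the lowest stage score of the 6. Without it the median of the list was -1.27, and still no yolk gene was called. In the stage-adjusted fit the median was -1.84 and 4 of the 6 were called lower, although the score itself is formed in part from vit-2 to vit-6. For vit-1 the libraries were at 52.1, 39.6 and 180.2 CPM against 16.6, 14.4 and 29.2 CPM (adjusted p = 0.223). The vit genes are similar in sequence and can exchange reads. Small shifts in 1 direction without any call were seen in housekeeping lists. Proteasome subunits were negative in 33 of 33 genes, with a median of -0.14 and 10 unadjusted p below 0.05. Nucleolar and RNA polymerase I genes were negative in 26 of 26, with a median of -0.20 and 11 such p. Cytosolic ribosomal proteins were positive in 3 of 81, with a median of -0.13 and 3 such p. These directions depend on the scaling: with library totals alone 12 of the 33, 7 of the 26 and 27 of the 81 were positive. Relative to the median of all genes the lists stood at -0.19, -0.24 and -0.18 with the main scaling and within 0.01 of that with the others. With DESeq2-type size factors 2 nucleolar genes were called lower. The stage-adjusted fit called lower 4 proteasome genes, 5 nucleolar genes and 1 ribosomal protein gene. Neuropeptides of the FMRFamide-like family were positive in 29 of 30 genes, with a median of 0.32 and 7 unadjusted p below 0.05. With library totals alone 1 was called higher, and after adjustment for the stage score 3 were higher and 1 lower.

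Genes that change as the worm passes from the last molt to egg production held no call either. None of 151 cuticle collagen genes was called, with a median of -0.16 and 12 unadjusted p below 0.05. None of 44 molting and apical matrix genes was called, with a median of -0.11, or 0.0065 with library totals alone, and 0 such p. Among all genes tested 9126 of 16259 changes were positive. Oocyte and eggshell genes were positive in 34 of 43, with a median of 0.22, and sperm genes in 78 of 84, with a median of 0.33. Without replicate 3 of the dis-3 single mutant these 4 medians were 0.12, -0.32, 0.70 and 0.81, with no call. In the stage-adjusted fit 2 collagen genes were called lower, and 1 molting gene, 3 oocyte and eggshell genes and 2 sperm genes higher. Over all 16259 genes that fit called 409 higher and 548 lower. Because the score is itself formed from molt, oocyte and yolk genes, the fit cannot serve as a separate check on such genes.

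Regulators known from dietary restriction did not pass the test. None of 47 genes of dietary restriction and nutrient signalling was called, and 1 had an unadjusted p below 0.05. With 1.24% of all genes called, a list of this size can lack calls without differing from other genes. The lipase regulator gene hlh-30 was at 16.4, 10.4 and 12.7 CPM in the dis-3 single mutant and at 13.9, 9.41 and 14.4 CPM in the double mutant. The pharynx and dietary restriction factor gene pha-4 was at 6.65, 5.56 and 5.74 CPM against 7.47, 6.56 and 7.98 CPM. Both pairs of ranges overlapped. None of 36 autophagy genes, 20 vacuolar ATPase genes or 32 nicotinic receptor subunit genes was called, with 8, 0 and 2 unadjusted p below 0.05. Among all 16259 genes tested 1692 had such a p. Autophagy genes depended on the setting, as 7 were called higher after adjustment for the stage score and 1 with library totals alone. With that adjustment 1 nicotinic receptor subunit gene was lower.

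Marker lists of tissues describe what the whole-body pools held. A lower level of a tissue's transcript can come from fewer cells of that tissue or from less RNA per cell, which cannot be told apart in these libraries. Summed pharynx markers ran from 3142 to 3677 CPM in the dis-3 single mutant and from 3606 to 3801 CPM in the double mutant. Intestine markers ran from 7122 to 8424 CPM and from 7271 to 7334 CPM, and body wall muscle markers from 24302 to 28429.7 CPM and from 21641 to 26670.2 CPM. Oocyte and eggshell markers ran from 3712 to 6327 CPM and from 4516 to 5579 CPM. In each of these 4 lists the genotypes overlapped. Summed neuron markers ran from 1011 to 1116 CPM in the dis-3 single mutant and from 1123 to 1194 CPM in the double mutant, without overlap, and none of 55 was called. Their part in the results was not tested.

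The same allele was then read without dis-3(L75Q). In eat-2(ad1116) against wild type, a comparison that shares no library with the one above although both come from 1 fit, 664 genes were higher (4.08% of those tested) and 345 were lower (2.12%). This split depended on the stage score, since after adjustment for it 257 were higher and 562 lower, and 355 of these 819 were among the 1009. The stage score was -3.46, -0.152 and -4.25 in wild type and -1.33, 2.42 and 2.53 in eat-2. Replicate 2 of wild type and replicate 1 of eat-2 stood apart from the rest of their groups, and the counts without each of them are given below. Of the 89 genes called higher in the double mutant, 79 were also called higher in eat-2 against wild type, which is 88.8% of the 89 and 11.9% of the 664. Of the 113 called lower, 69 were also called lower there, which is 61.1% of the 113 and 20.0% of the 345. Signs were shared by 83 of the 89 and 108 of the 113. One gene, hmt-1, was called in opposite directions. Across the 202 genes, which were chosen by the dis-3 background values and are not independent of each other, Pearson's r of the log2 fold changes was 0.875 and Spearman's rho 0.881. Across all 16259 genes they were 0.366 and 0.180. Taken from the other side, 624 of the 664 genes higher in eat-2 against wild type had a positive change in the dis-3 background, with a median of 0.49 against 1.25. Of the 345 lower genes 335 had a negative change, with a median of -0.37 against -0.69. The larger medians belong to the comparison in which those genes were chosen.

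For 3 of the genes that fell with the eat-2 allele, picked with their values in view, the mean was higher in the dis-3 single mutant than in wild type. That comparison was not tested. Picking large falls from the dis-3 single mutant also favours genes with high means there. For irg-5 the means were 12.6 ± 3.33 CPM in wild type, 63.1 ± 18.0 in the dis-3 single mutant, 1.93 ± 1.18 in eat-2 and 2.93 ± 0.844 in the double mutant (SD, n = 3 each). For clec-3 they were 4.77, 20.9, 1.47 and 1.84 CPM in that order, and for asp-14 they were 149.7 ± 49.5, 357 ± 73.6, 75.01 ± 22.4 and 81.0 ± 12.4 CPM. The dis-3 single mutant held the highest mean in these 3 genes, and they were not the only such falls. The means in wild type were 48.1, 45.8 and 22.1 CPM for dod-24, irg-4 and F55G11.2. In the dis-3 single mutant they were 123, 166 and 74.9 CPM. Among these genes irg-4 and asp-14 were not called in eat-2 against wild type (edgeR adjusted p = 0.391 and 0.0564). Other falls began from closer levels, such as cth-2, with means of 247 CPM in wild type and 242 CPM in the dis-3 single mutant. For T22B7.7 wild type stood higher, at a mean of 96.4 against 63.0 CPM. The share of all falls that began from a raised level was not computed. The interaction, the difference of the eat-2 effects, was not called for irg-5, clec-3 or asp-14 (edgeR adjusted p = 0.522 each). Its estimates were -1.72 ± 0.61, -1.80 ± 0.52 and -1.14 ± 0.39 on the log2 scale (SE). It was not called for dod-24, irg-4 or T22B7.7 (0.522 each), F55G11.2 (0.111) or cth-2 (0.782) either. A missing call does not show equal effects, and the interaction calls went from 10 to 2214 without replicate 1 of eat-2. For adh-1 the means were 19.6, 28.0, 209.6 and 149.6 CPM, and for lys-7 they were 51.2, 59.5, 214 and 237 CPM. Gst-4 was at 40.1, 53.8, 12.7 and 14.9 CPM. The effects on lys-7 and gst-4 were nearly equal in size in both backgrounds, with interactions of -0.07 ± 0.17 and -0.19 ± 0.19 on the log2 scale (SE; adjusted p = 0.846 and 0.605).

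**Figure D5:**
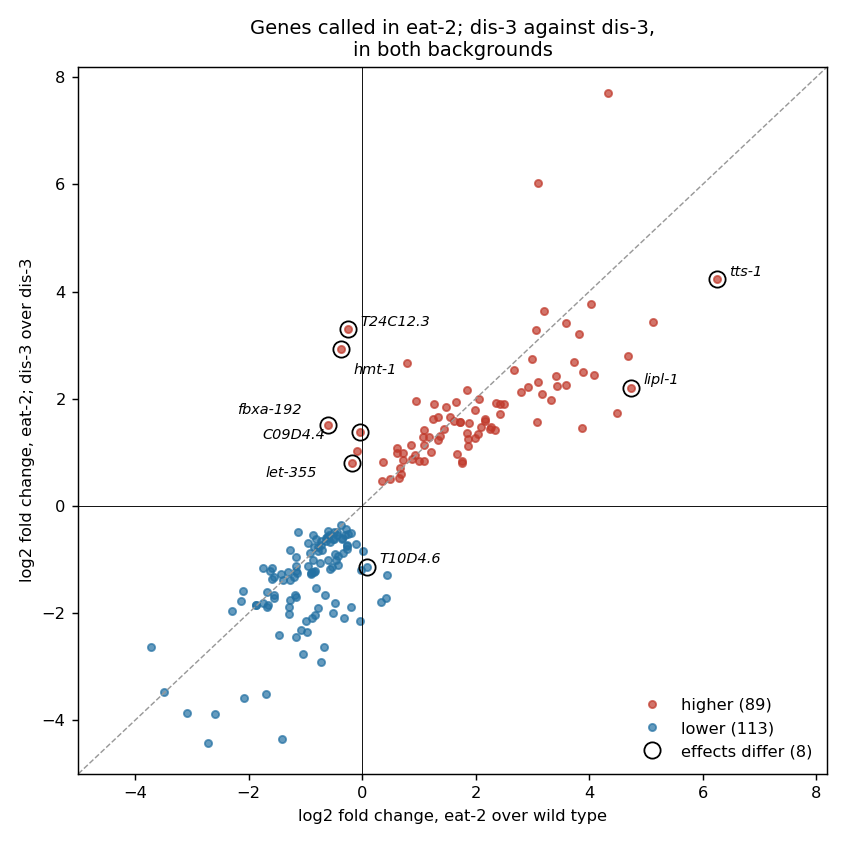
Log2 fold change of the double mutant over the dis-3 single mutant (vertical axis) against that of eat-2 over wild type (horizontal axis) for the 202 called genes, with circles round the 8 of them whose effects differ at an adjusted p below 0.05. Most points share their sign, and hmt-1, T24C12.3, C09D4.4 and let-355 sit near 0 on the horizontal axis.

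By the test of the interaction the effect of the allele differed between the backgrounds for 10 genes (0.0615% of those tested). Of these, 8 were among the 202. In 5 of them the dis-3 single mutant stood apart from the other 3 genotypes. The gene hmt-1, an ABC transporter gene needed in worms for cadmium tolerance, had a mean of 87.6 ± 3.24 CPM in wild type, 67.7 ± 3.05 in eat-2 and 71.3 ± 3.20 in the double mutant. In the dis-3 single mutant it stood at 9.96, 8.57 and 9.43 CPM. The rise of 7.65-fold there met a log2 fold change of -0.37 in eat-2 against wild type (interaction 3.31 ± 0.12, adjusted p = 4.06e-07). The gene T24C12.3 was likewise at 3.21, 3.76 and 3.23 CPM in the dis-3 single mutant and at means of 40.8, 34.5 and 33.5 CPM in wild type, eat-2 and the double mutant. The neighbouring genes C09D4.4 and let-355 had means of 24.9 and 38.0 CPM in the dis-3 single mutant against means from 65.2 to 78.6 CPM in the other genotypes. The gene T10D4.6 was the reverse, at a mean of 35.8 CPM in the dis-3 single mutant and 15.5, 16.4 and 16.3 CPM in wild type, eat-2 and the double mutant. The double mutant, which carries dis-3(L75Q) too, was nearer to wild type than to the dis-3 single mutant in these 5 genes. Whether these 5 reflect the eat-2 allele or a difference particular to strain VC40130 was not tested, and they are counted among the 202. The interaction calls of hmt-1 and T24C12.3 were kept in all 20 alternative settings. That of C09D4.4 was lost in 1, without replicate 3 of wild type, that of let-355 in 16 and that of T10D4.6 in 14.

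For 2 genes the rise with the eat-2 allele was smaller in the dis-3 background by the test, but neither call was stable. The rise of tts-1 was 18.8-fold with dis-3(L75Q) and 75.9-fold without it, to means of 66.9 ± 11.4 and 194 ± 29.1 CPM (SD, n = 3; interaction -2.01 ± 0.26, adjusted p = 0.0338). For lipl-1 the rise was 4.61-fold with dis-3(L75Q), and the means were 6.52 ± 0.938 CPM in the double mutant and 34.7 ± 9.20 CPM in eat-2 (interaction -2.54 ± 0.36, adjusted p = 0.0391). The double mutant libraries lay below all eat-2 libraries in both genes. The sign of the interaction was the same in all 20 alternative settings, but its call was lost in 11 of them for tts-1 and in 13 for lipl-1. The adjusted p reached 0.161 and 0.239, and limma-voom, the replicate block and the stage-adjusted fit were among the settings that lost both calls. For lipl-3 and lipl-2 the interactions were -1.03 ± 0.31 and -0.71 ± 0.34, and neither was called (adjusted p = 0.522 each). The F-box gene fbxa-192 was at 8.90, 0.907, 5.85 and 2.60 CPM in wild type, the dis-3 single mutant, eat-2 and the double mutant (interaction 2.12 ± 0.29, adjusted p = 0.0374), and lost its interaction call in 11 of 20 settings.

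The other 2 genes of the 10 did not differ between the double mutant and the dis-3 single mutant by the test. The gene scb-1, which in worms affects sensitivity to bleomycin, was at 19.1, 20.3 and 17.3 CPM in the dis-3 single mutant and at 22.6, 23.5 and 23.5 CPM in the double mutant (log2 fold change 0.30 ± 0.18, adjusted p = 0.652). It was at 2.90 CPM in wild type and 24.4 CPM in eat-2, so it stood high in all mutant genotypes. The gene Y48G9A.11 was at 1.75, 1.68 and 2.08 CPM in wild type, the dis-3 single mutant and the double mutant, and at 0.187 CPM in eat-2 alone. The interaction call of scb-1 was kept in all 20 settings, and that of Y48G9A.11 was lost in 11.

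The number of calls rests on few libraries. It was 106 without replicate 1 of the dis-3 single mutant, 91 without its replicate 2, and 103, 74 and 75 without replicates 1, 2 and 3 of the double mutant, while 36 of the 48 named and called genes kept their call in every setting tried.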

How the data were processed

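RNA-seq libraries of 12 whole-body samples, 3 per genotype, were used. Per the file headers, the authors deposited expected counts, which RSEM estimates for each gene without scaling to depth or length. The submitters' processing notes name RSEM 1.3.1, STAR 2.7.0e and the builds WBcel235 and ce11. Annotation, strandedness, trimming and RNA selection: not given in the sources used here. Genes that overlap or lie antisense are therefore uncertain. Expected counts were rounded (93.4% to 93.8% of values above 0 were already whole, tolerance 0). Of 46934 entries 46924 matched Ensembl release 115 of WBcel235, the source of the 1-based coordinates. The 47 gene lists were matched by symbol, and 22 list names were not found.

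All 12 libraries entered a single edgeR 4.0.16 model (R 4.3.3) with genotype as its term, TMM scaling and filterByExpr, and contrasts were tested two-sided by the robust quasi-likelihood F test with Benjamini-Hochberg adjustment over 16259 genes. The standard error is the log2 fold change divided by the root of F. The stage score uses log2 CPM with a prior count of 2. Alternatives were limma 3.58.1 (voom), DESeq2 1.42.0, other scalings and filters, a replicate block, the stage score as a covariate and each library left out. The fitting was tested on simulated data. By rule the text names dis-3, eat-2, the 10 largest rises and 10 largest falls (called, a gene-class name, averaging 5 CPM or more, no overlap of groups), 3 and 3 that lack such a name, 2 called genes with the smallest p per list, and the interaction genes. Further genes were named with their values known. The comparison, the lists and the tests were chosen with earlier results of these data known. Plots were drawn with matplotlib 3.10.9.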

Additional observations from a re-analysis of the deposited data

Results flagged for a closer look

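For 10 genes the test of the interaction found that the eat-2 effect with dis-3(L75Q) differed from that without it (edgeR, adjusted p below 0.05 over all genes tested, 3 libraries per genotype). The values are the log2 effect with dis-3(L75Q) minus the log2 effect without it. They were positive for hmt-1 (3.31), T24C12.3 (3.54), Y48G9A.11 (3.49), fbxa-192 (2.12), C09D4.4 (1.43) and let-355 (0.98). They were negative for scb-1 (-2.77), lipl-1 (-2.54), tts-1 (-2.01) and T10D4.6 (-1.22). The 10 calls became 2214 without replicate 1 of eat-2, and between 3 and that number over single libraries left out. The formal test for an outlying sample needs 4 libraries per group and was not applied.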

How the results depend on the processing

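The called genes of the double mutant against the dis-3 single mutant numbered 202, and stayed within 1.5 times that count with other scalings, other filters, limma-voom (205) and only the 6 libraries compared (255). They were 82 at an adjusted p below 0.01, 608 with DESeq2, 115 with the replicate block and 957 with the stage score as a covariate, and between 74 and 170 when 1 library was left out. All 202 were also called by DESeq2 and with the stage score. In eat-2 against wild type 1009 genes were called. They were 238 at an adjusted p below 0.01, 570 at 2-fold or more, 1714 with library totals alone, 2284 with DESeq2, 84 with only its 6 libraries and 496 with the replicate block. Leaving out 1 library gave 298 to 6161, the highest without eat-2 replicate 1, and 2460 without wild-type replicate 2. The 10 interaction calls became 4 at an adjusted p below 0.01, 52 with DESeq2, 6 with limma-voom and 4 with the replicate block, and 3 to 2214 with 1 library left out, the highest without eat-2 replicate 1. The causes were not tested.

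Same-numbered libraries of the groups compared deviated with correlations of 0.182, -0.00293 and 0.143, so the numbers were not taken to pair them, and 114 of the 115 block calls were among the 202. The stage score difference ran from -0.834 to 0.863 over single libraries left out, within the SD of 1.85 of the dis-3 group. Of the single-gene values under 15 settings, 722 kept direction and side of the threshold, 57 kept direction but passed no longer, and 0 reversed. With 3 libraries per group, rises of low genes and small shifts may be missed, and counting error is small beside the spread of libraries except in genes of few counts.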

Other observations

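Some called genes lay close to another called gene on the chromosomes, seen after the values were known. The share for other sets of genes was not computed, and genes that were not called can lie between. In 20 runs with gaps of at most 20 kb stood 47 of the 202 called genes, 23.3%, and in 17 runs all calls had the same direction. On chromosome V, from 13727761 to 13748758 (WBcel235), dct-17, F35E12.6, irg-5 and F35E12.10 all fell, which is 4 of 6 genes tested there. On chromosome IV, from 12965374 to 12978343, dod-22, F55G11.2 and dod-17 fell while F55G11.4, between them, rose 2.79-fold (adjusted p = 0.00118, edgeR). The saposin-like genes spp-2 and spp-4 lie within 2.762 kb of each other on chromosome X and moved in opposite directions. Pairs that rose together were clec-60 and clec-61, cyp-13A1 and cyp-13A5, ilys-2 and ilys-3, tsp-1 and tsp-2, and cbp-2 and cbp-3. Neighbours in such runs are often related in sequence, and shared reads were not tested. Chromosome V held 20.5% of the genes tested and 33.7% of those called.

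Further genes, on none of the lists, were picked with their values in view. The glycogen debranching enzyme gene agl-1 was at 132, 131 and 114 CPM in the dis-3 single mutant and at 39.3, 42.2 and 42.7 CPM in the double mutant. It fell 3.04-fold (adjusted p = 9.7e-06, edgeR), and in eat-2 against wild type its log2 fold change was -1.68. The glycerol-3-phosphate dehydrogenase gene gpdh-1 fell 2.35-fold (adjusted p = 0.0153). The purine salvage genes aprt-1 and hprt-1 fell 1.68-fold and 1.45-fold (adjusted p = 0.0277 and 0.0282). The zinc finger transcription factor gene pqm-1 was at 13.0, 12.3 and 14.7 CPM against 25.8, 26.2 and 28.3 CPM, 2.01-fold higher (adjusted p = 0.0178). The gene lea-1, whose protein protects worms against drying, rose 1.51-fold (adjusted p = 0.0441). The chemoreceptor gene srw-85 was at 0.165, 0.0982 and 0.0326 CPM against 5.58, 6.88 and 7.48 CPM (adjusted p = 0.00503).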
